A study of Homo sapiens with 4 samples.

Results

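The members described here were 15781 regions of the human genome at which a peak of reporter RNA was listed in MDA-MB-231 cells treated with both SHP1705 and MG132 (COMBO), with MG132 alone, or in both cultures. They were chosen from the COMBO and MG132 peak lists on chromosomes 1 to 22 and X in 2 ways. Shared pairs were a COMBO and an MG132 peak whose summits lay within 250 bp, and there were 7425 of them, which took 13.0% of the COMBO peaks and 10.6% of the MG132 peaks. One-list regions were peaks of at least 1.5 times the mean fragment length, with the summit more than 2 bp from the middle of the peak and no overlapping peak in the other list; 3518 were COMBO-only and 4838 were MG132-only. The 4 lists of the study held 260678 peaks on these chromosomes. Because the members were chosen by having a peak in one list or in both, their number and their ratio are given as a description, with no test.

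The study used self-transcribing active regulatory region sequencing (STARR-seq), in which sheared DNA of the MDA-MB-231 breast cancer cell line is cloned into a reporter so that a fragment that drives transcription is found in the reporter's own poly-A RNA. There were 4 libraries, 1 for each treatment: SHP1705 at 10 µM with MG132 at 100 nM (COMBO), MG132 at 100 nM, SHP1705 at 10 µM, and the vehicle DMSO. The drugs were in the medium before the plasmid pool was transfected, and RNA was taken 8 h after transfection in every group. With 1 library per treatment no difference between treatments has a replicate check, and the 95% intervals below cover counting error only. Fragments are counted with PCR duplicates kept, so they are not independent molecules either.

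SHP1705 stabilizes CRY2, a cryptochrome, per the submitters. Cryptochromes are the repressors of the circadian clock that bind the CLOCK and BMAL1 activators at E-boxes, and they are removed by the proteasome after ubiquitin ligases mark them. MG132 is a peptide aldehyde that blocks the proteasome's catalytic sites, mainly the chymotrypsin-like site of the subunit PSMB5. Cells with a blocked proteasome are known to switch on heat shock chaperones, NRF2 targets, the ATF4 stress response, ubiquitin genes and, through the factor NFE2L1, proteasome genes. The comparison of COMBO with MG132 asks what adding the CRY2 stabilizer changed where the proteasome inhibitor was present in both cultures.

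Depth was close in the COMBO, MG132 and DMSO libraries, at 28331486, 27289266 and 29717604 fragments, and the SHP1705 library had 118324303. The lists held 57174 COMBO, 69842 MG132, 85840 SHP1705 and 47822 DMSO peaks. The share of peaks of at least 1.5 times the mean fragment length was 13.1% in both COMBO and MG132 and 14.1% in DMSO, but 42.9% in SHP1705. SHP1705 values stand beside the members' values below as what that deeper library showed. The line is known to lack CDKN2A, CDKN2B and MTAP: the COMBO list held 0 peaks in CDKN2A, 0 in CDKN2B and 1 in MTAP, and the MG132 list held 0, 1 and 0. The SHP1705 list held 5, 3 and 3, of which the tallest, in CDKN2B, had 3289 fragments. Between CDKN2A and MTAP, outside the genes counted, the COMBO list held a peak of 725 fragments, with 19 in MG132 and 21 in DMSO. Relative to library depth, this COMBO peak was about as tall as the SHP1705 peak in CDKN2B. The SHP1705 and COMBO lists thus both go against what is known of the line there, and the cause was not tested.

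Few members lay at promoters. Windows from 250 bases before to 50 bases after a gene start were searched for summits. Summits of shared pairs fell in 12 of them, of COMBO-only regions in 5 and of MG132-only regions in 11. Of these windows 3, 5 and 4 belonged to protein-coding genes. Windows were counted per gene, so CCDC169 and its readthrough gene CCDC169-SOHLH2, which have the same window and summit, were counted separately. The 6 sequences below are the 250 bases before such starts (RefSeq, GRCh38.p14, 5′ to 3′ on the gene's strand), shown because the members' summits lie in them; the 6 were chosen after their values were seen. Capitals mark matches, on either strand, to 14 motifs that were searched, and those found here were the E-box CACGTG of CLOCK and BMAL1, the CRE TGACGTCA of CREB and ATF factors, the ARE TGACNNNGC of NRF2, the motif of NF-kB, the ETS motif CCGGAA, the SP motif GGGCGG and the TEAD motif GGAATG. Among all 15812 protein-coding promoters of this length, 7.83% held the E-box, 2.32% the CRE, 11.5% the ARE, 25.8% the NF-kB motif, 19.3% the ETS motif, 56.0% the SP motif and 10.1% the TEAD motif. No 2 of these motifs overlapped in the printed stretches.
CCDC169, chr13:36297815-36298064, minus strand, COMBO-only: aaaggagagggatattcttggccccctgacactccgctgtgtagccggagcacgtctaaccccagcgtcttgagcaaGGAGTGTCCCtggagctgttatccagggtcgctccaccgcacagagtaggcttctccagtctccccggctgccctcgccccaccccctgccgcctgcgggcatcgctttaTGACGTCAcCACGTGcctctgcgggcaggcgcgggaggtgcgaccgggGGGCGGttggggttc
CTAGE15, chr7:143571551-143571800, plus strand, COMBO-only: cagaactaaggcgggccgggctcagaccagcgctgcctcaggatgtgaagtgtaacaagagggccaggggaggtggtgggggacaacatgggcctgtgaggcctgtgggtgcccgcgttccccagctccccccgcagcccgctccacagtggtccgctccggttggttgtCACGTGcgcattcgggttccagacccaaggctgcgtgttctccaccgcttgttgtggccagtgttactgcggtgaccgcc
FANCD2, chr3:10026187-10026436, plus strand, COMBO-only: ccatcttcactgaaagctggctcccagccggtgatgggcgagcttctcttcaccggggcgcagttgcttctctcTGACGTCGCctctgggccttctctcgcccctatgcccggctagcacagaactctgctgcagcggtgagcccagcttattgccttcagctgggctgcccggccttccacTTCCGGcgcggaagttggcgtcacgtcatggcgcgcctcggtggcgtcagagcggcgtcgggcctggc
SRP54, chr14:34982742-34982991, plus strand, shared pair: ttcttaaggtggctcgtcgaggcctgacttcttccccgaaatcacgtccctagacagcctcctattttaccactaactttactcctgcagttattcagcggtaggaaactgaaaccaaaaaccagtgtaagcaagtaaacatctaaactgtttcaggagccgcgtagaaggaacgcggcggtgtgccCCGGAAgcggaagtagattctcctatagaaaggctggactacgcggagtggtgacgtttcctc
JPT1, chr17:75154513-75154762, minus strand, MG132-only: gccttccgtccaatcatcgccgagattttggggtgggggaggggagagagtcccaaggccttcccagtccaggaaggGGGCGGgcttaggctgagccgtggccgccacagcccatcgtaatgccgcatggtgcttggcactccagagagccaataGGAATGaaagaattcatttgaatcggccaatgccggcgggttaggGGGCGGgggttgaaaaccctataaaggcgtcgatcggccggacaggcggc
SNRPB, chr20:2470790-2471039, minus strand, MG132-only: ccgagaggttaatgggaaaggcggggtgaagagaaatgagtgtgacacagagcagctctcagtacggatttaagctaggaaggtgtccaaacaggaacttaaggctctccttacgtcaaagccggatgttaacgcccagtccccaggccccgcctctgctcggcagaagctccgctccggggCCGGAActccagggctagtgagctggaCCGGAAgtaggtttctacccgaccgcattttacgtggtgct

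Both promoters that hold an E-box, of CCDC169 and CTAGE15, belonged to COMBO-only regions, with 274 and 242 fragments over the summit in COMBO and no overlapping MG132 peak. The summits were not at the E-boxes. In CCDC169 the summit lay 248 bases before the start and the E-box 54, and in CTAGE15 they lay 150 and 80 bases before it. The CCDC169 window, which also serves the CCDC169-SOHLH2 readthrough gene, has its CRE and its E-box side by side. FANCD2, whose product is monoubiquitinated in DNA crosslink repair, had 103 fragments in COMBO over a summit 239 bases before its start. SRP54, a subunit of the signal recognition particle, had a pair with 152 fragments in COMBO and 120 in MG132. JPT1 had 61 and SNRPB, which encodes a core protein of spliceosomal snRNPs, had 168 fragments in MG132, with no overlapping COMBO peak. A motif match is a description of these letters, and with so few promoters none of these sets can be ranked by motif.

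Most shared pairs were about as tall in both libraries. The height of a peak is the number of fragments over its summit, given here per 1000000 fragments of the library (FPM). The COMBO over MG132 ratio of this height had a median log2 of -0.07 over the 7425 pairs (95% interval -0.09 to -0.05), an interquartile range of -0.53 to 0.51 and an SD over pairs of 1.10. COMBO was at least 2-fold higher at 1028 pairs (13.8%) and at least 2-fold lower at 914 pairs (12.3%), and it was the lower library by any amount at 3994 pairs (53.8%). These percentages are the background for every group of pairs below. In bulk RNA, fewer transfected cells and less reporter RNA per cell cannot be told apart. When the scale was set so that the median ratio is 1, which moves every log2 value by the same small step, the median was 0 by construction.

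The median depended on how tall the pair was. The pairs were split by mean height into 5 groups of equal size. In the lowest group, with 0.467 to 2.85 FPM, the median log2 was -0.21 and COMBO was the lower library at 66.8% of pairs. In the middle group it was 0.11, and in the tallest, which reaches 6569 FPM, it was -0.12. Pairs in which both peaks were wide and off-centre, 2026 in all, had a median of -0.19 with an SD of 0.79, and 5.48% were at least 2-fold higher and 11.1% at least 2-fold lower in COMBO. Split by height in the same way, these wide pairs had medians between -0.25 and -0.14 in the 5 groups. The 676 pairs whose peaks were both centred on their summits, a shape that a pile of copies of few fragments gives, had a median of 0.39 with an SD of 1.18, and 27.2% of them were at least 2-fold higher in COMBO against 9.32% lower.

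The sign of the wide pairs' median hardly depended on the chromosome. It was below 0 on 22 of 23 chromosomes, lowest at -0.32 on chromosome 16, and the exception was chromosome 18 at 0.16. Outside the longest gene-free stretch of each chromosome, which includes the centromere on most chromosomes, it was below 0 on 22 of the 22 chromosomes with at least 10 such pairs. Inside that stretch it was below 0 on 15 of 19, with -0.40 on chromosome 17 and 0.47 on chromosome 11. The stretch, widened by 1 Mb on each side, held 3754 of the 7425 pairs (50.6%), whose median was -0.06.

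Pairs at 3′ ends and on pseudogenes were mostly lower in COMBO. Within 1 kb of the 3′ end of a protein-coding gene there were 437 pairs, and 77.6% of them were lower in COMBO, against 53.8% of all pairs, with a median log2 of -0.27 (95% interval -0.30 to -0.22) and an SD of 0.74. Pairs on annotated pseudogenes, 546 in all, were lower in COMBO in 76.0% of cases, with a median of -0.23 and an SD of 0.82. The 61 pairs within 1 kb of a gene start had a median of -0.16, with an interval of -0.36 to 0.05. By contrast the 1112 pairs inside protein-coding genes but off pseudogenes and more than 1 kb from the genes' ends had a median of 0.08 and an SD of 1.28, and the 1220 pairs outside genes and outside the gene-free stretch had a median of 0.20 and an SD of 1.37. In that group 22.3% of pairs were at least 2-fold higher and 17.7% at least 2-fold lower in COMBO. Among wide pairs alone this contrast was nearly absent. Their medians were -0.24 inside genes away from the ends (205 pairs) and -0.23 outside genes and the stretch (132 pairs). Wide pairs at 3′ ends and on pseudogenes had -0.27 and -0.26. Among pairs not both wide, the medians in the same order were 0.26, 0.26, -0.27 and -0.21.

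The SHP1705 and DMSO lists, which did not enter the choice of members, also separated the pairs. The 3074 pairs that also had a summit within 250 bp in both of these lists had a median of -0.19 and an SD of 0.81. The 2472 pairs with no such summit in either list had a median of 0.22 and an SD of 1.27, and 22.9% of them were at least 2-fold higher in COMBO against 13.4% lower. Among wide pairs alone the medians were close, -0.20 with a summit in both lists (1295 pairs) and -0.14 with none (234 pairs). Of these 234, 11.1% were at least 2-fold higher and 14.5% lower. Among pairs not both wide the medians were -0.19 and 0.27. One further class was set up after the values were seen, the 1129 pairs whose height in the SHP1705 library was at least 10 times the mean of COMBO and MG132. Of these, 72.8% lay in a protein-coding gene, 38.9% on a pseudogene, 30.4% within 1 kb of a 3′ end and 3.45% within 1 kb of a start, and 0.531% lay outside every gene. Among the other 6296 pairs the same shares were 15.9%, 1.70%, 1.49% and 0.349%, with 78.6% outside every gene.

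The COMBO over MG132 ratios of these pairs lay close together. The class limit itself uses the COMBO and MG132 heights, so a pair that is much taller in either can drop out of the class, which can narrow its spread. Their median log2 was -0.27 (95% interval -0.29 to -0.25), the interquartile range was -0.45 to -0.09, the SD was 0.43, and 83.0% were lower in COMBO, against 53.8% of all pairs. The 962 pairs at least 10 times as tall in SHP1705 as in DMSO, a class that uses neither compared library, had a median of -0.28, an SD of 0.57 and 83.9% lower in COMBO. Of these 962, 18 were at least 2-fold higher (1.87%) and 37 at least 2-fold lower (3.85%). Of the 1129 pairs of the first class, 16 were at least 2-fold higher (1.42%) and 36 lower (3.19%), against 13.8% and 12.3% of all pairs. With those 1129 left out, the remaining 6296 pairs had a median of 0.031, so the sign of the median over all pairs turned without that class. Among wide pairs it did not turn: the 1449 wide pairs outside the class had a median of -0.14. The 4847 pairs outside the class that were not both wide had 0.09. For the 967 of the 1129 that also had a DMSO peak, the median heights were 1.91 FPM in COMBO, 2.38 in MG132, 67.9 in SHP1705 and 2.15 in DMSO. Set against the same DMSO peaks, which both comparisons share, the median log2 was -0.19 for COMBO over DMSO (SD 0.54) and 0.08 for MG132 over DMSO (SD 0.53).

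**Figure D1:**
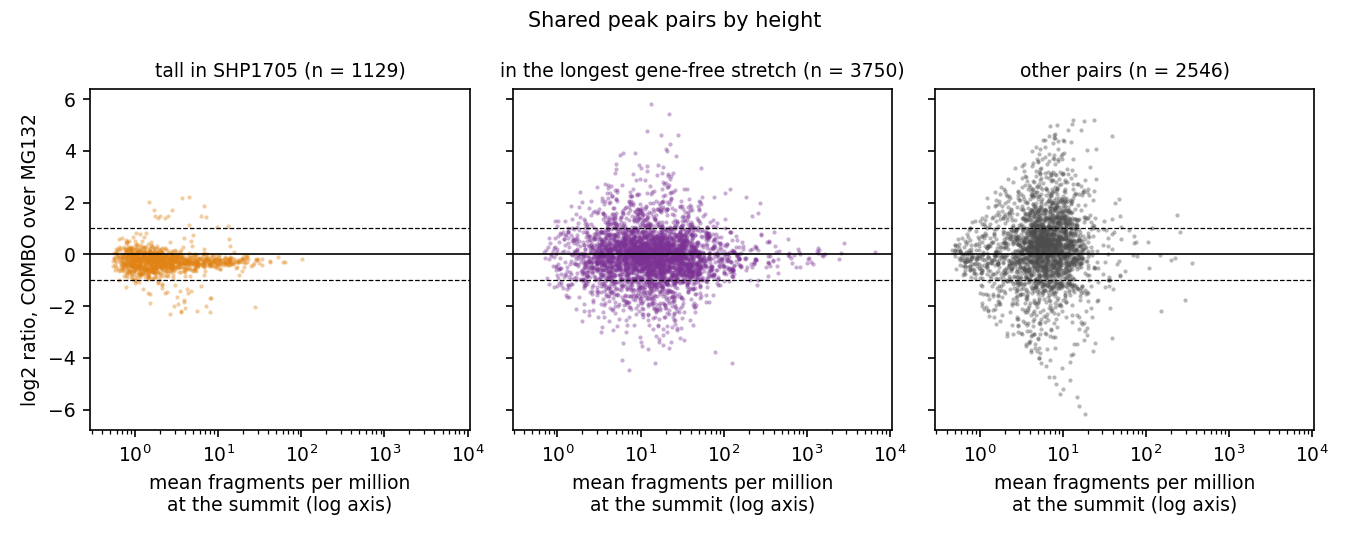
Each point is a shared pair, with its mean height (fragments at the summit per 1000000 library fragments) on a log axis and the log2 ratio of COMBO over MG132 on the vertical axis; dashed lines mark 2-fold. The left panel holds the 1129 pairs tall in SHP1705, which form a narrow band just below 0 (median -0.27), the middle panel the other pairs of the gene-free stretches and the right panel all remaining pairs, whose ratios spread widely on both sides.

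**Figure D2:**
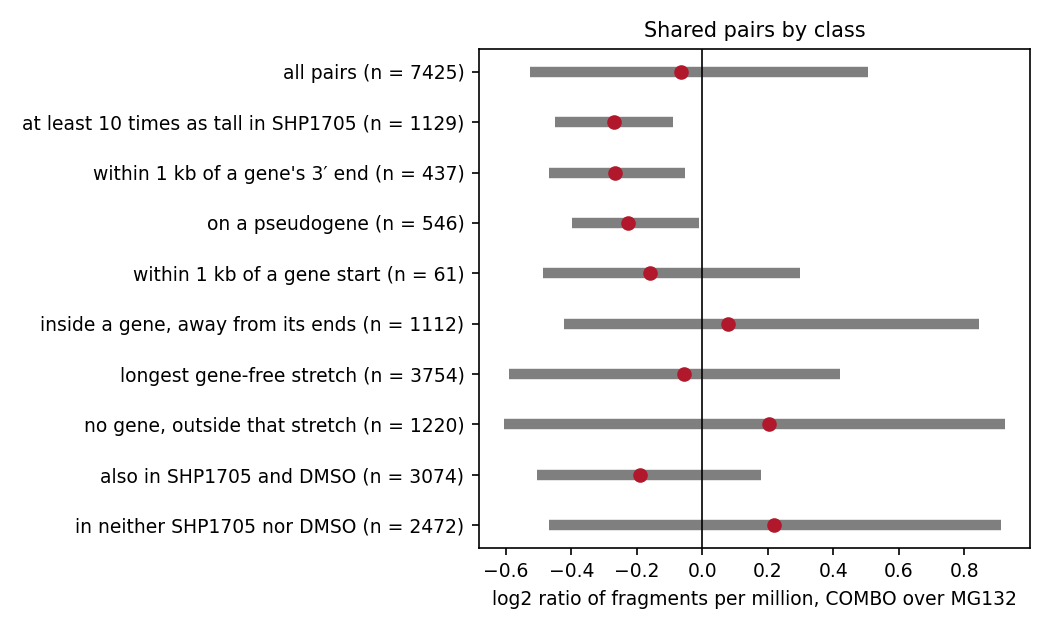
For each class of shared pairs, the median log2 ratio of COMBO over MG132 (point) with the interquartile range of the pairs (bar). Pairs at 3′ ends, on pseudogenes and tall in SHP1705 sit below 0 with short bars, and pairs found in neither SHP1705 nor DMSO sit above 0 with long bars.

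The tallest pairs of this kind were at abundant mRNAs and their copies. The processed copy EEF1A1P5 of the translation elongation factor gene EEF1A1, on chromosome 9, had 95.4 FPM in COMBO, 110 in MG132, 3400 in SHP1705 and 106 in DMSO, a log2 of -0.20 for COMBO over MG132. TMSB4XP8, a copy of the actin-binding thymosin gene TMSB4X inside CCSER1, had 57.0, 70.9, 2569 and 60.7 in the same order of libraries, a log2 of -0.32. ACTB, cytoplasmic beta-actin, had 53.8, 66.5, 1576 and 60.7, and its ratio was 0.808 (95% interval 0.754 to 0.865). All 3 were lower in COMBO than in MG132 by less than 1.5-fold. The pair on the nuclear noncoding RNA MALAT1 was also slightly lower in COMBO, with 37.1 FPM in COMBO and 45.8 in MG132.

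UBB stood far outside this narrow band. UBB (chr17:16380779-16382745, hg38, plus strand) is a polyubiquitin gene, whose product is cut into single ubiquitin units, and it is named here because of its ratio. Its COMBO peak (chr17:16381873-16382697) had 312 fragments over the summit and its MG132 peak (chr17:16381884-16382808) had 1226, with 55898 in SHP1705 and 384 in DMSO. In FPM this was 11.01 in COMBO, 44.9 in MG132, 472 in SHP1705 and 12.9 in DMSO. MG132 alone was the high library among the 3 of like depth, and COMBO was close to DMSO. The COMBO over MG132 ratio was 0.245 (95% interval 0.216 to 0.278), a log2 of -2.03.

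UBE2V1, a ubiquitin-conjugating enzyme variant that acts with UBE2N, had 1.24 FPM in COMBO, 5.83 in MG132, 36.0 in SHP1705 and 1.14 in DMSO, a log2 of -2.24. EHD2, an ATPase of caveolar necks, had 2.75, 13.0, 158 and 3.10 in the same order, a log2 of -2.24. SLC44A2, a choline transporter-like protein, had 0.882, 4.32, 36.5 and 1.41, a log2 of -2.29. In these 3 genes too MG132 was the high one and COMBO lay near DMSO. TPD52L2, GOLM1, RAB1A and TXNDC5 were between -2.07 and -1.86. Over the 36 pairs of the class that were at least 2-fold lower in COMBO, 31 had a DMSO peak, and DMSO was closer to COMBO in 26 and to MG132 in 5. Over all 967 pairs of the class with a DMSO peak, it was closer to COMBO in 397 and to MG132 in 570.

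The 16 pairs of the class that were at least 2-fold higher in COMBO had the opposite layout. Of the 12 with a DMSO peak, DMSO was closer to MG132 in 12 and to COMBO in 0. PSMB5, the subunit that MG132 binds, had 103 fragments in COMBO and 36 in MG132, or 3.64 and 1.32 FPM, with 31.1 in SHP1705 and no DMSO summit within 250 bp. Its ratio was 2.76 (95% interval 1.87 to 4.15), and the pair was not both wide. RNPS1, a splicing factor of the exon junction complex, had 2.36 FPM in COMBO and 0.586 in MG132, with 20.5 in SHP1705, a log2 of 2.01. XRCC5, the Ku80 protein of double-strand break repair, had 2.96 in COMBO, 1.06 in MG132, 27.8 in SHP1705 and 1.11 in DMSO, a log2 of 1.48. PSMD8P1, a copy of the proteasome gene PSMD8 inside IL6R, had 4.31 in COMBO, 1.32 in MG132, 44.0 in SHP1705 and 0.841 in DMSO, a log2 of 1.71. Pairs named in these paragraphs were taken from both ends of the ratio after it was known, so the side on which DMSO falls is a description.

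**Figure D3:**
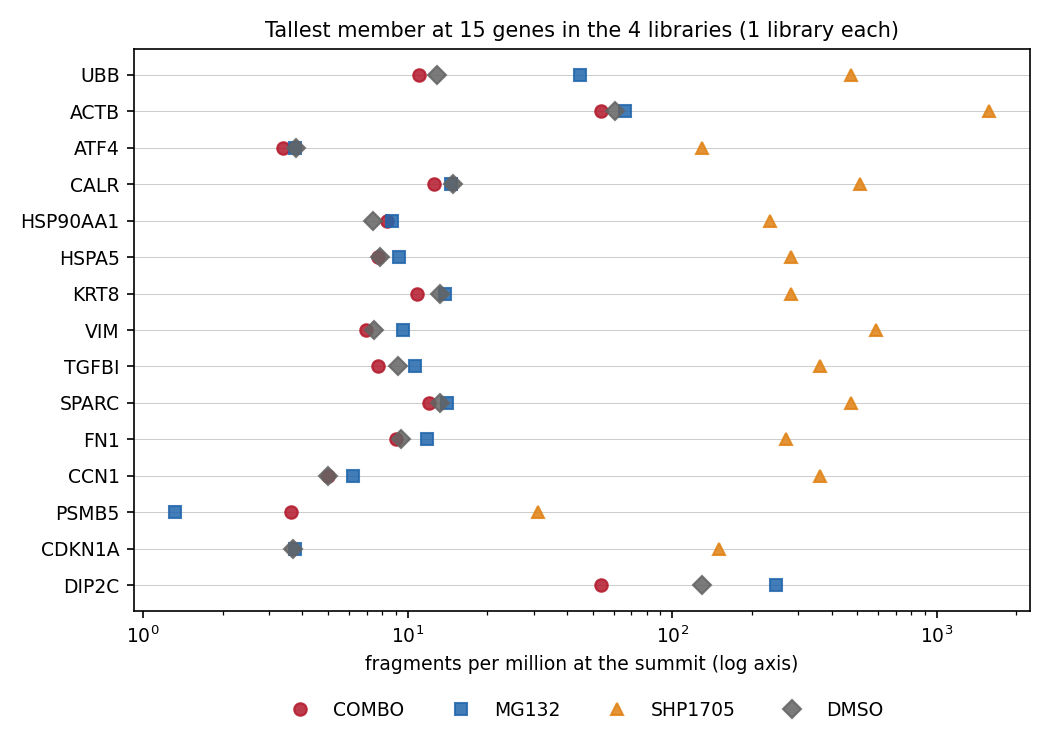
Height in fragments per 1000000 library fragments (log axis) of the tallest member at 15 genes in the COMBO, MG132, SHP1705 and DMSO libraries, 1 point per library; a missing point means no summit within 250 bp, or for CDKN1A in COMBO no overlapping peak. UBB is high in MG132 (44.9) against COMBO (11.01) and DMSO (12.9), and ACTB, CALR and HSPA5 are nearly level across these 3 libraries.

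The loci of 14 gene lists were read within 10 kb of each gene. Over all 19974 protein-coding genes, 12.3% had a shared pair in that range, 7.12% a COMBO-only and 10.5% an MG132-only region, and the 2051 pairs concerned had a median log2 of -0.13 with COMBO lower in 1188. Of the list pairs named below, all that were higher in COMBO were not both wide, except CXCL8. Those lower in COMBO were of both kinds. Among all pairs not both wide, 17.0% were at least 2-fold higher and 12.8% lower in COMBO, against 5.48% and 11.1% of wide pairs. In the clock core loop, 3 of 21 genes had a shared pair, 2 a COMBO-only and 5 an MG132-only region. RORA, an activator of BMAL1 transcription, had 7.87 FPM in COMBO and 10.8 in MG132, a log2 of -0.46. Its relative RORB had 9.11 in COMBO and 3.44 in MG132, a log2 of 1.4, and also a COMBO-only peak of 24.3. BHLHE40, a repressor that competes at E-boxes, had 0.988 in COMBO and 1.14 in MG132. NFIL3 and DBP, which oppose each other at D-boxes, had MG132-only regions of 14.3 and 3.15 FPM. The median of the 3 clock pairs was -0.20 and turned to 0.37 within 50 kb.

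Among 18 genes of clock protein turnover, 3 had a shared pair, 2 a COMBO-only and 3 an MG132-only region. CSNK1D, casein kinase 1 delta, which marks PER proteins for removal, had 3 pairs with unlike ratios. They had 33.9 FPM in COMBO against 26.8 in MG132, 7.41 against 19.3, and 1.16 against 1.17. FBXL17, an F-box protein, had an MG132-only peak of 12.7, and the ligase subunits CUL1 and BTRC had COMBO-only peaks of 9.14 and 3.81. The median of the 6 pairs was -0.19, with 4 lower in COMBO.

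Of 36 proteasome genes, 6 had a shared pair, 6 a COMBO-only and 5 an MG132-only region. The 7 pairs had a median log2 of 0.36 and 3 were lower in COMBO. Those higher in COMBO, at PSMB5, PSMD7, PSME3 and PSME4, were not both wide. The wide pairs of this list, both counted for NFE2L1, were lower in COMBO, with log2 values of -0.28 and -0.54. PSME4, the PA200 activator cap, had 6.0 FPM in COMBO and 3.04 in MG132, a ratio of 1.97 (95% interval 1.51 to 2.60). PSMB5 is described above. The pair inside PSMD14, the gene of the lid's deubiquitinase, lay on the pseudogene MXRA7P1 and had 1.52 in COMBO and 1.54 in MG132. NFE2L1, the factor that drives proteasome genes under inhibition, had 1.48 in COMBO and 1.80 in MG132. Of the core subunits, PSMA6 had a COMBO-only peak of 7.06 at 4480 bp from the gene and PSMA1 an MG132-only peak of 13.5 inside it.

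Of 25 heat shock genes, 8 had a shared pair, and all 8 pairs were slightly lower in COMBO, with log2 values between -0.35 and -0.06 and a median of -0.25. Of the 8 pairs, 7 belonged to the class tall in SHP1705, whose own median was -0.27 with 83.0% lower in COMBO. The pair counted for HSPB8 lay 570 bp from it, on the pseudogene PDAP1P1. HSP90AA1, the inducible cytosolic HSP90, had 8.37 FPM in COMBO, 8.72 in MG132, 233 in SHP1705 and 7.37 in DMSO. HSPA8, the constitutive HSC70, had 4.24, 5.31, 202 and 5.55 in the same order, and the small heat shock protein gene HSPB1 had 3.07, 3.92, 137 and 2.89. HSP90AB1, the constitutive HSP90, had 2.58, 3.08, 57.0 and 2.83. For each of these 4 genes the 95% interval of the COMBO over MG132 ratio included 1. COMBO-only peaks lay at 4 genes, DNAJB1 with 14.1 FPM and HSP90AB1 with 11.7 inside the genes, HSPA2 with 18.0 at a distance of 9214 bp and HSPB8 with 3.49 at 8592 bp. Elsewhere in DNAJB1 the MG132 list held 3 peaks, none of them wide, the tallest of 10.6 FPM, and the DMSO list 2, the tallest of 20.5. MG132-only peaks lay at 2 genes of the list, and BAG3, a co-chaperone induced by proteasome blockade, had 1.14.

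In the NRF2 list, 4 of 20 genes had a shared pair and 4 of the 5 pairs were lower in COMBO, with a median of -0.18. Those 4 belonged to the class tall in SHP1705, of which 83.0% were lower in COMBO with a median of -0.27. The tallest pair inside TXNRD1, the thioredoxin reductase gene, lay on RPL18AP3, a pseudogene copy of a ribosomal protein gene, with 18.0 FPM in COMBO and 20.7 in MG132. The other pair in TXNRD1 had 1.06 in COMBO, 1.21 in MG132 and 43.4 in SHP1705. SQSTM1, the p62 autophagy receptor, had 3.07 in COMBO and 3.48 in MG132. PGD, of the pentose phosphate pathway, went the other way, with 9.35 in COMBO and 3.55 in MG132. The cystine transporter gene SLC7A11 had a COMBO-only peak of 13.4 at 242 bp from it and an MG132-only peak of 8.72 at 6368 bp. In the ATF4 and unfolded protein list, 6 of 20 genes had a shared pair and 6 of 7 pairs were lower in COMBO, with a median of -0.14. Of the 7 pairs, 6 belonged to the class tall in SHP1705, and 5 of these 6 were lower in COMBO, with a median of -0.12. The ER chaperones CALR and HSPA5 had 12.6 and 7.69 in COMBO against 14.6 and 9.23 in MG132. ATF4 itself had 3.39 in COMBO, 3.74 in MG132, 130 in SHP1705 and 3.77 in DMSO.

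Of 20 p53 target genes, 1 had a shared pair, 4 a COMBO-only and 7 an MG132-only region. MDA-MB-231 is known to carry mutant p53. CDKN1A (chr6:36676463-36687332, hg38, plus strand), the cell cycle inhibitor p21, had an MG132-only region at chr6:36685779-36687230, at the 3′ end of the gene. It had 102 fragments over the summit in MG132, or 3.74 FPM, with 150 in SHP1705 and 3.70 in DMSO, and no overlapping COMBO peak. The one COMBO peak in CDKN1A was elsewhere, at chr6:36682479-36682944, with 347 fragments. A pair 2042 bp from the gene had 9.39 in COMBO and 1.03 in MG132, a log2 of 3.19, and it is the single pair of this list. FAS, a death receptor, had an MG132-only peak of 8.76 at 777 bp from the gene, and XPC, a DNA damage sensor, a COMBO-only peak of 10.9 at 6739 bp.

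In the NF-kB list, 5 of 22 genes had a shared pair, 3 a COMBO-only and 0 an MG132-only region, and the 5 pairs had a median of 0.09, which turned to -0.10 within 50 kb. The neighbouring apoptosis inhibitors BIRC3 and BIRC2 had 8.26 and 7.45 FPM in COMBO against 6.45 and 4.03 in MG132. NFKBIE lies beside HSP90AB1, and its pair and COMBO-only region are those given for that gene. The chemokines CXCL8 and CXCL1 had 1.13 and 0.953 in COMBO against 1.06 and 1.246 in MG132. In the interferon list each kind of region lay at 3 of 24 genes. RIGI, a sensor of viral RNA, had 14.2 in COMBO and 11.3 in MG132. The antiviral genes IFIT2 and IFIT3 shared an MG132-only peak of 11.2 that lay 9056 and 9670 bp from them.

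AP-1 and immediate early genes held 9 pairs at 8 of 23 genes, all 9 lower in COMBO, with a median of -0.23. CCN1 and CCN2, matricellular targets of YAP and TEAD, had 5.01 and 3.18 FPM in COMBO against 6.19 and 4.54 in MG132. JUN had 1.55 in COMBO and 1.58 in MG132, a log2 of -0.02. A pair 7865 bp from KLF2 had 7.91 in COMBO and 9.71 in MG132, and an MG132-only peak 8844 bp from MYC had 7.95. In the cell cycle list 2 of 28 genes had a shared pair. The pair counted for the S-phase kinase gene CDK2 lay 7718 bp from it, on the pseudogene LOC100131294, with 4.27 in COMBO and 6.12 in MG132. RRM2, a ribonucleotide reductase subunit, had 5.75 in COMBO and 3.0 in MG132.

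The mesenchymal and basal list was the one most often hit by shared pairs, 16 of 24 genes against 12.3% of all protein-coding genes, with 1 COMBO-only gene and 0 MG132-only genes. Of its 22 pairs, 19 were lower in COMBO and the median log2 was -0.31, while 17 of the 22 belonged to the class tall in SHP1705. VIM, vimentin, had 6.95 FPM in COMBO, 9.64 in MG132, 589 in SHP1705 and 7.44 in DMSO, a ratio of 0.721 (95% interval 0.597 to 0.871). TGFBI, a secreted TGF-beta target, had 7.69, 10.7, 362 and 9.19 in the same order. FN1, fibronectin, had 9.07, 11.8, 268 and 9.42, and SPARC, a matrix glycoprotein, had 12.04, 14.1, 475 and 13.3. CD44, the hyaluronan receptor, differed from these with pairs on both sides, 0.953 in COMBO against 6.38 in MG132 at one and 6.95 against 5.28 at the other.

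Luminal breast genes, which this line expresses weakly for the most part, had shared pairs at 8 of 22 genes, with a median of -0.21 over 9 pairs. The keratin genes KRT8 and KRT19 had 10.9 and 8.58 FPM in COMBO against 13.9 and 12.7 in MG132, and 281 and 217 in SHP1705. SPDEF, with a pair 515 bp from the gene, and ERBB3 went the other way, with 14.97 and 11.6 in COMBO against 3.66 and 3.37 in MG132, and had no SHP1705 or DMSO summit within 250 bp. Blood and liver genes, as markers of cell types that the culture should not hold, had shared pairs at 2 of 22 genes and no one-list regions. The tallest was at LYZ, with 10.5 in COMBO, 12.8 in MG132, 51.5 in SHP1705 and 11.5 in DMSO. Whether fragments in genes and at 3′ ends came from the plasmid pool or from the cells' own mRNA was not tested.

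**Figure D4:**
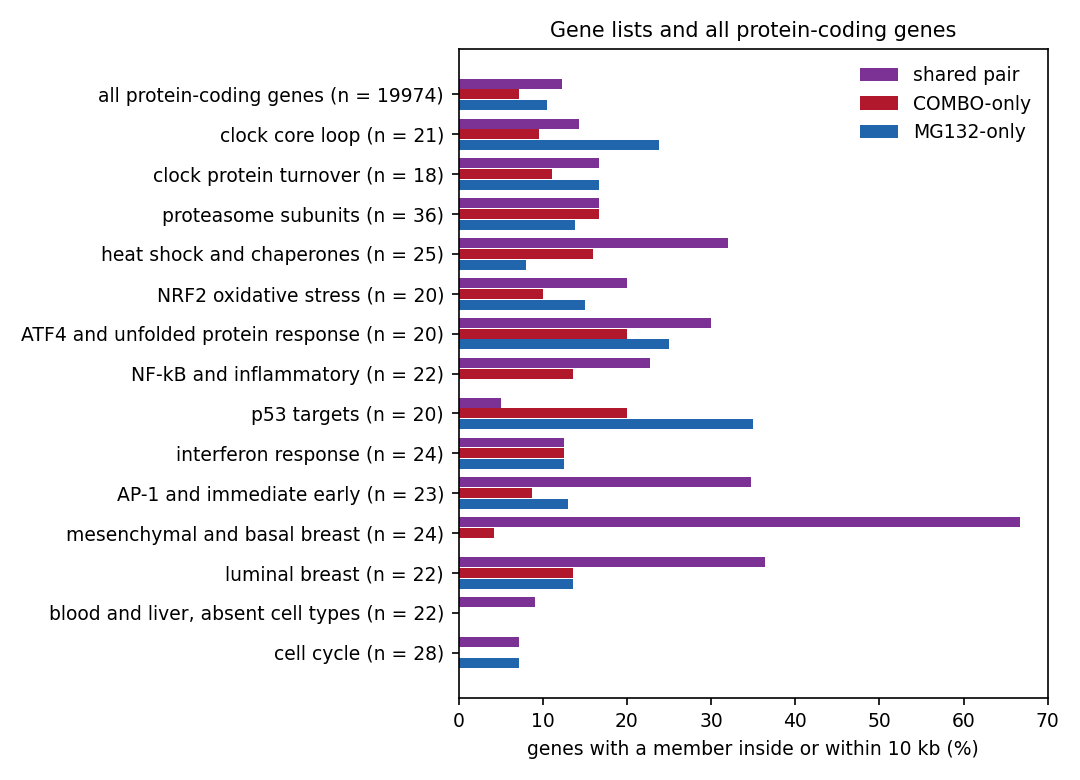
For each gene list, the share of its genes with a shared pair, a COMBO-only or an MG132-only region within 10 kb, beside the shares over all protein-coding genes. The mesenchymal and basal list stands highest for shared pairs, at 66.7% against 12.3% of all genes.

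Outside the lists, the largest ratios came from peaks that were tall in one library and barely held in the other. Among pairs with at least 200 fragments in both libraries together, none of the 10 highest and none of the 10 lowest ratios was a wide pair. EPB41L2, a membrane skeleton gene, had 908 fragments in COMBO and 31 in MG132, a log2 of 4.82, with 40.6 FPM in SHP1705. A pair 8005 bp from CDKN2A, which lies between that gene and MTAP, both of which this line is known to lack, had 725 in COMBO and 19 in MG132, with 0.707 FPM in DMSO. At the other end WBP11, a splicing-associated gene, had 14 fragments in COMBO and 985 in MG132, a log2 of -6.19. CENPQ, of the inner kinetochore, had 15 and 845, a log2 of -5.87, and RHOT1, of mitochondrial transport, had 12 and 491, a log2 of -5.41. Of these, CENPQ and RHOT1 had no SHP1705 or DMSO summit within 250 bp.

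The 10 tallest pairs all lay more than 400 kb from the nearest protein-coding gene, on chromosomes 1, 5 and 17, and their log2 ratios ran from -0.17 to 0.44. The tallest, at position 125180179 of chromosome 1, had 6752 FPM in COMBO, 6386 in MG132, 407 in SHP1705 and 7606 in DMSO. Among the tallest pairs at protein-coding genes, DIP2C had 53.9 in COMBO, 247 in MG132, no SHP1705 summit and 130 in DMSO, a log2 of -2.20. DUX4, a germline transcription factor gene that lies in arrays of near-identical copies, had 122 in COMBO, 87.5 in MG132 and 130 in DMSO, a log2 of 0.47. INPP5A, an inositol phosphatase gene, had 74.2 in COMBO and 3.15 in MG132, and TRPM8, the cold-sensing channel gene, had 7.52 in COMBO and 70.4 in MG132. AHNAK2, a scaffold protein gene, had 67.3 in COMBO and 32.2 in MG132, and also a COMBO-only region of 53.1 FPM.

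Regions found in 1 list were fewer in COMBO. The 3518 COMBO-only regions were 6.15% of the COMBO peaks and the 4838 MG132-only regions were 6.93% of the MG132 peaks. Per 1000000 fragments there were 124 COMBO-only and 177 MG132-only regions, a ratio of 0.700 (95% interval 0.670 to 0.732), against 0.789 for all peaks of the lists. This direction turned when the MG132 list was shortened to the length of the COMBO list by its −log10 q-value: the ratio became 1.35, since that step removed 12668 MG132 peaks and left none below 55 fragments in MG132 while COMBO kept peaks down to 12. With at least 2 FPM asked of every region and the whole other list kept, 3041 COMBO-only and 4046 MG132-only regions stayed, a ratio of 0.724. The members of both kinds had the same median length, 763 bp, and median heights of 175.5 fragments in COMBO-only and 141 in MG132-only regions.

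The smaller number in COMBO lay among regions under 400 fragments. Under 50 fragments at the summit there were 383 COMBO-only and 693 MG132-only regions, a ratio of 0.532 per library fragment. From 50 to below 100 there were 651 and 1072, a ratio of 0.585, and from 100 to below 200 there were 913 and 1386, a ratio of 0.634. From 200 to below 400 fragments there were 966 and 1125, a ratio of 0.827. From 400 to below 1000 there were 548 and 508, a ratio of 1.04 (95% interval 0.919 to 1.17), and at 1000 or more 57 and 54. At 400 fragments or more the numbers did not differ beyond counting error. The whole COMBO list also had fewer peaks per library fragment than the MG132 list, a ratio of 0.789, and its median peak was taller. The whole lists were not split by height in this way. Whether the pattern over heights is particular to the one-list regions was therefore not tested.

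**Figure D5:**
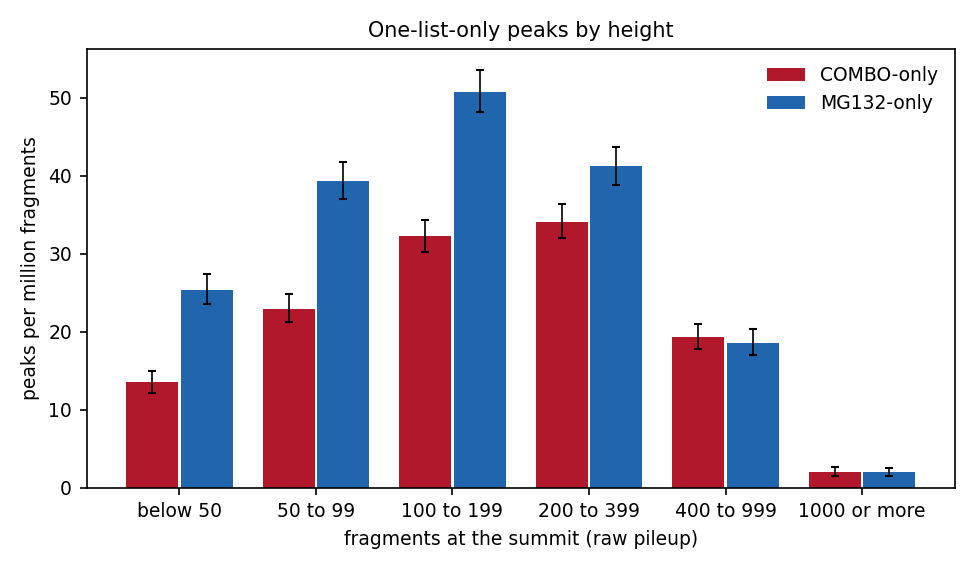
Number of COMBO-only and MG132-only regions per 1000000 library fragments by the number of fragments at the summit, with exact 95% Poisson intervals. MG132-only regions are more numerous below 400 fragments, and the pairs of bars are level from 400 on. The whole lists were not split by height for comparison.

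By position the ratio was lowest at 3′ ends. Within 1 kb of a 3′ end there were 53 COMBO-only and 141 MG132-only regions, a ratio of 0.362 (95% interval 0.259 to 0.4998), and within 1 kb of a start 34 and 35, a ratio of 0.936. Outside every gene the ratio was 0.765, and in the gene-free stretches 0.834. At 2 FPM or more the 3′ ends kept 26 COMBO-only and 47 MG132-only regions, a ratio of 0.533, and with lists of equal length the ratio turned to 5.95, for the reason given above. Overlap with the other lists was alike for both kinds: 17.9% of COMBO-only and 17.2% of MG132-only regions overlapped a DMSO peak, and 18.6% and 20.8% overlapped an SHP1705 peak. For wide peaks that both lists held, 80.2% in COMBO and 79.2% in MG132 overlapped a DMSO peak.

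At the regions that were at least 10 times as tall in SHP1705, again a class set up, with its named genes, after the values were seen, there were 65 COMBO-only and 149 MG132-only regions, a ratio of 0.420 (95% interval 0.309 to 0.566). Of the 65, 59 lay in genes and 15 at 3′ ends, and of the 149, 133 and 45. Their median heights were 23 fragments in COMBO-only and 25 in MG132-only regions, near the lowest height that the lists held. With lists of equal length the ratio was 60.3, and at 2 FPM or more 3 COMBO-only and 13 MG132-only regions remained, a ratio of 0.222. HNRNPF, an RNA-binding protein of splicing, had 4.87 FPM in MG132, 55.1 in SHP1705, 1.55 in DMSO and no overlapping COMBO peak. ZFP36L2, an mRNA decay factor, had 2.78 in MG132, 33.2 in SHP1705 and 1.99 in DMSO. GADD45A, a stress sensor gene of the p53 list, had 1.65 in MG132, 29.1 in SHP1705 and 0.875 in DMSO. In the other direction B2M, the light chain of MHC class I, had 6.85 in COMBO and 189 in SHP1705, and SOD3, extracellular superoxide dismutase, had 1.87 in COMBO, 162 in SHP1705 and 2.52 in DMSO.

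Of the 10 tallest COMBO-only and 10 tallest MG132-only regions at genes, 6 and 5 overlapped no SHP1705 or DMSO peak, against 70.9% of all COMBO-only and 70.3% of all MG132-only regions. SSH2, a cofilin phosphatase gene, had the tallest COMBO-only region, 1636 fragments or 57.7 FPM at chr17:29813680-29814308, and RGS5, a regulator of G-protein signalling, had 1104. VAPB, an ER contact-site protein gene, had the tallest MG132-only region, 2398 fragments or 87.9 FPM at chr20:58426686-58427514. HDAC4, a class IIa histone deacetylase gene, had 1627 fragments in MG132 and SCUBE3, a secreted glycoprotein gene, 1423. TSNARE1 on chromosome 8 had a COMBO-only region of 985 fragments and, elsewhere in the gene, an MG132-only region of 2030. Genes of at least 10 kb with 3 or more regions of 1 kind and none of the other numbered 6 for COMBO-only and 21 for MG132-only. MG132-only regions were the more numerous inside genes in any case, 1661 against 1073 COMBO-only. They lay in 7.39% and 4.98% of all 19974 protein-coding genes, and the counts of 6 and 21 are not corrected for this. LPA, the apolipoprotein(a) gene, and EPS15, an endocytic adaptor gene, were among the 6 and had 3 COMBO-only regions each. DLGAP4 had 4 MG132-only regions in 222 kb.

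At the length limit the members were fewer and lower than the peaks just under it. In COMBO, peaks of 1.5 to 1.6 times the mean fragment length that overlapped no MG132 peak, 285 in all, had a median of 184 fragments, and the 878 just under the limit had 251. In MG132 the 420 just over the limit had a median of 145 and the 1157 just under it 210. Pairs with summits 201 to 250 bp apart, 450 in all, had a median log2 of 0.02, and the 350 possible pairs 251 to 300 bp apart had -0.10. A further 1903 COMBO peaks overlapped an MG132 peak with summits too far apart to be paired, and 44303 COMBO and 55631 MG132 peaks without an overlap were left out by length.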

How the data were processed

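Reporter RNA of 4 STARR-seq libraries was deposited as peak lists of hg38. Per the file headers, the authors called peaks with MACS 2.2.6 on each library alone, from paired-end fragments with duplicates kept, without a control, at a q-value limit of 0.01, with a local background over 10000 bp and a minimum length of d, the mean fragment length (355 bp in COMBO, 354 in MG132, 299 in SHP1705 and 346 in DMSO). Trimmomatic, FastQC and Bowtie2 were used before that, per the submitters' processing notes, and no source used here gives their versions. The deposited pileup is a signal, the unscaled number of fragments over the summit. The deposited fold enrichment is a ratio to the same library's local background, and the deposited −log10 p-value and −log10 q-value were used for filters only.

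Pileups were scaled to 1000000 of the header's fragments (FPM). Peaks were paired nearest summits first, each used once, and compared as COMBO over MG132, with no test since each side is 1 library. Intervals are 95%: exact binomial for ratios and shares, and order-statistic for medians. Positions came from RefSeq GRCh38.p14; 15813 of 19974 protein-coding genes had a strand there, so starts and 3′ ends cover those. Scripts ran in Python 3.11.15 with pandas 2.3.3 and scipy 1.17.1 and were tested on simulated lists. The rule let the text name the 10 highest and lowest ratios with at least 200 fragments, the 10 tallest members overall and at genes, up to 4 members per gene list, and genes with 3 or more one-list regions; others are said to be chosen by value. The members, lists and rules were chosen with earlier results of these data known. Some genes that these rules pick are not reported here.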

Additional observations from a re-analysis of the deposited data

How the results depend on the processing

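No paired analysis was possible because each treatment has 1 library, and for the same reason no replicate could be left out. The alternative near centromeres was not run, as no annotation of them was used here; the longest gene-free stretch of each chromosome stood in, and this and the alternatives on SHP1705 height, equal lists within classes and a minimum of 2 FPM were chosen after seeing the data. The number of shared pairs was 2026 without centred and short piles, 3671 without the gene-free stretch 1129 for pairs tall in SHP1705 and 962 for pairs at least 10 times as tall there as in DMSO. Their median log2 was 0 when scaled to a median ratio of 1, -0.036 at 100 or more summed fragments, -0.19 without centred and short piles, -0.27 for pairs tall in SHP1705, 0.031 without these and -0.28 for those set against DMSO. Pairs at least 2-fold higher numbered 682 within 100 bp, 111 and 224 lower without centred and short piles, 637 and 428 lower without the gene-free stretch, 16 and 36 lower for pairs tall in SHP1705, and 18 and 37 lower for those set against DMSO. COMBO-only and MG132-only regions numbered 2112 and 2943 at 2 times d, 9964 and 12090 at the looser length limit (ratio 0.794), and 65 and 149 for peaks tall in SHP1705 (ratio 0.420). The ratio was 0.651 without the gene-free stretch and 1.35 with equal lists. Equal lists also turned the ratio at gene ends, 3′ ends and peaks tall in SHP1705 to 3.99, 5.95 and 60.3, by removing low MG132 peaks, and at 2 FPM or more the ratios at 3′ ends and at peaks tall in SHP1705 were 0.533 and 0.222. Within 2 kb of gene ends lay 10.3% of pairs, 5.88% of COMBO-only and 7.73% of MG132-only regions. Within 50 kb, 4779 genes had a pair, 2968 a COMBO-only and 4275 an MG132-only region, and the medians of 4 lists changed sign, to 0.37 (clock core), -0.10 (NF-kB), -0.23 (p53) and -0.49 (cell cycle). By summits within 250 bp rather than overlap, 11.3% of COMBO-only, 11.8% of MG132-only and 53.4% of paired regions were in the SHP1705 list and 10.3%, 10.4% and 54.7% in the DMSO list. The cause was not tested beyond what each setting removes. Regions under about 20 fragments are near the lowest that the lists hold, 12 in COMBO and MG132, so an absent peak there is not detectable at this depth.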
